A study of Rattus norvegicus and Mus musculus with 24 samples.

Results

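Immediate early genes are transcribed within minutes of a growth factor, a stress or an injury, without new protein synthesis. Many encode transcription factors, and the FOS and JUN proteins pair through leucine zippers to form AP-1, a dimer that binds DNA at TGANTCA and related sites. Their mRNAs are short-lived, and in injured kidney tubules they are a textbook early response. The genes described here were chosen by name, with no cutoff on a measured value but with earlier results of these data known: the FOS family members FOS, FOSB and FOSL1 (FRA-1), the JUN family members JUN and JUNB, the stress-induced factor ATF3, the zinc finger factor EGR1, the immediate early gene IER2, the growth regulator MYC, and ZFP36, which binds AU-rich mRNAs and speeds their decay. All 10 were among the 17376 symbols of the mouse table. In the rat, 8 were found among 14931 symbols, and IER2 and ZFP36 were not analysed here.

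The study compared kidney cortex of animals that lack Ctns, which encodes the lysosomal cystine exporter cystinosin, with wild-type (WT) littermates, as models of the storage disease cystinosis. The mice were 4 Ctns knockout (KO) and 4 WT animals on C57BL/6, and the rats were 8 Ctns KO and 8 WT Sprague-Dawley animals, with 1 RNA library per animal and no treatment named in the labels. No driver that limits the deletion to a cell type is named. The labels give no age or sex and name both kidney cortex and proximal tubule cells, with an extraction protocol for microdissected tubules, whereas the methods name kidney cortex. The rats carry numbers 17 to 24 and 25 to 32, each range with 4 KO and 4 WT animals. What separates the ranges is not given in the labels, so the KO effect was also taken within each of them.

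Libraries held 19309449 to 44449859 reads on genes in the mice and 24684097 to 40629873 in the rats. Levels are given in CPM, the reads of a gene per 1000000 reads on all genes of the library. CTNS was at 15.5 to 16.9 CPM in the KO mice and at 39.0 to 47.4 CPM in the WT mice. In the rats its level was 16.8 to 22.96 CPM in the KO and 18.99 to 26.4 CPM in the WT animals, so its RNA level does not tell the rat genotypes apart and the rat labels were taken as given. Proximal tubule markers were abundant in every library. Markers of other segments were present too: podocyte genes summed to 808 to 936 CPM and thick limb, distal tubule and collecting duct genes to 8353 to 11232 CPM in the mice. In such bulk libraries, fewer cells of a type and less RNA per cell cannot be told apart.

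The short life of these mRNAs is written in their 3′ ends, where AU-rich elements recruit decay factors such as ZFP36. The longer element TTATTTATT and its core TATTTAT were searched on the sense strand in the mouse 3′ untranslated regions (GENCODE vM21, GRCm38, the mouse build named in the submitters' processing notes as mm10). The 30 bases around the element are shown for the members that hold one, with the element in capitals, because they are a feature some members share that their choice did not use. Where the longer element is present it is the one shown.
FOS (chr12:85477103-85477132, plus strand): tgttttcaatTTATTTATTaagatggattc
ZFP36 (chr7:28376950-28376979, minus strand): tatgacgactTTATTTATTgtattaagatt
FOSB (chr7:19303325-19303354, minus strand): ccacccccagcTATTTATccctttcctggt
FOSL1 (chr19:5455867-5455896, plus strand): agggcagctgcTATTTATtttcctaaagag
JUN (chr4:95049078-95049107, minus strand): ttgcttgtgcaTATTTATaatagcgttcgt
ATF3 (chr1:191170337-191170366, minus strand): aaaatattactTATTTATcccagtattcct
The core was found in 6 of the 10 members and the longer element in FOS and ZFP36. It was not found in JUNB, EGR1, IER2 or MYC, which says only that these letters are not in their annotated 3′ regions. Over the whole 3′ region, 25.5% of 21020 mouse genes hold the core and 6.98% the longer element, which contains the core. Within the last 500 bases, compared over regions of at least that length, the core was in 5 of 8 members and in 15.4% of 13217 genes, and the longer element in 2 of the 8 and in 3.63% of genes.

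For the rat, promoters were taken from RefSeq on GRCr8, where FOSL1 and JUNB are 2 of the 4 rat members with an entry. They are shown because these genes had the largest and the smallest KO effect of the rat members. Capitals mark TGACG, the short site bound by ATF and CREB proteins, searched on both strands.
FOSL1 (GRCr8 chr1:212183635-212183934, plus strand): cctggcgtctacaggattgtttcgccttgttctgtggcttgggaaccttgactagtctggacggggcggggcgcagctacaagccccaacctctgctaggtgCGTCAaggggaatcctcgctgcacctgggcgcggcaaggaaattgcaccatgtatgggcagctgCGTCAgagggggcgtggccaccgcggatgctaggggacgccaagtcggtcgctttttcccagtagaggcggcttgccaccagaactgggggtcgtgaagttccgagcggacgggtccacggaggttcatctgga
JUNB (GRCr8 chr19:40080876-40081175, plus strand): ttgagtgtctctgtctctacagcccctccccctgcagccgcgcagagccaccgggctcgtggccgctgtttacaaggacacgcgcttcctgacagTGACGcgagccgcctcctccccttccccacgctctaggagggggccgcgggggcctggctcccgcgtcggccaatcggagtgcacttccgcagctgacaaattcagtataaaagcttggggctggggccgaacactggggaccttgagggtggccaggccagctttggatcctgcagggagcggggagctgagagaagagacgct
FOSL1 held 2 such short sites and JUNB 1, a motif found in 21.2% of 33469 promoters of this length. Neither held the full CRE TGACGTCA (1.83% of promoters), the AP-1 site TGANTCA (7.33%) or a CArG box, the site of serum response factor (1.64%). The EGR1 promoter held 2 CArG boxes.

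In WT mouse kidney the members spanned a wide range of levels. As CPM per kilobase of annotated exon, JUN was at 11.2 ± 0.739 (SD, n = 4), ZFP36 at 10.3 ± 1.49, JUNB at 8.04 ± 1.66 and IER2 at 7.27 ± 1.245. These 4 neighbours in the order overlapped from one to the next. EGR1 (2.45 ± 1.39) and MYC (2.16 ± 0.292) followed, below every IER2 value, and then ATF3 (0.677 ± 0.131) and FOS (0.579 ± 0.273), below every MYC value. FOSB (0.0424 ± 0.0283) and FOSL1 (0.0304 ± 0.0457) were lowest, below every FOS value, and did not differ from each other beyond their spread. Thus FOSB and FOSL1 were close to undetected in WT kidney, with 1 to 20 and 0 to 6 reads per mouse.

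In the mice, the FOS family genes, JUN, ATF3 and MYC were higher in every Ctns KO animal than in every WT animal. Complete separation of the groups upward held for 6 of 10 members, against 13.8% of the 15835 mouse symbols with a read (15.4% separated in either direction). In the test on the deposited values (limma on log2(value + 1)), FOSL1, JUN and ATF3 rose, 3 of 10 members, against 4.32% of all 17376 symbols (3.5% higher, 0.817% lower). Because 1 is added to values that are mostly under 1, this scale compresses low genes. The same reads taken as counts (edgeR) called FOS, FOSB, JUN, ATF3 and MYC, 5 of 9 tested, against 8.91% of 13442 symbols (6.06% higher, 2.85% lower), with FOSL1 under its filter on low counts. FOSB, at 1 to 20 reads per WT mouse and 27 to 43 per KO mouse, passed that filter mainly through the KO mice. The median log2 change over the members was 0.06 with limma and 0.59 with edgeR, beside 0.00 and -0.01 over all symbols.

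**Figure D1:**
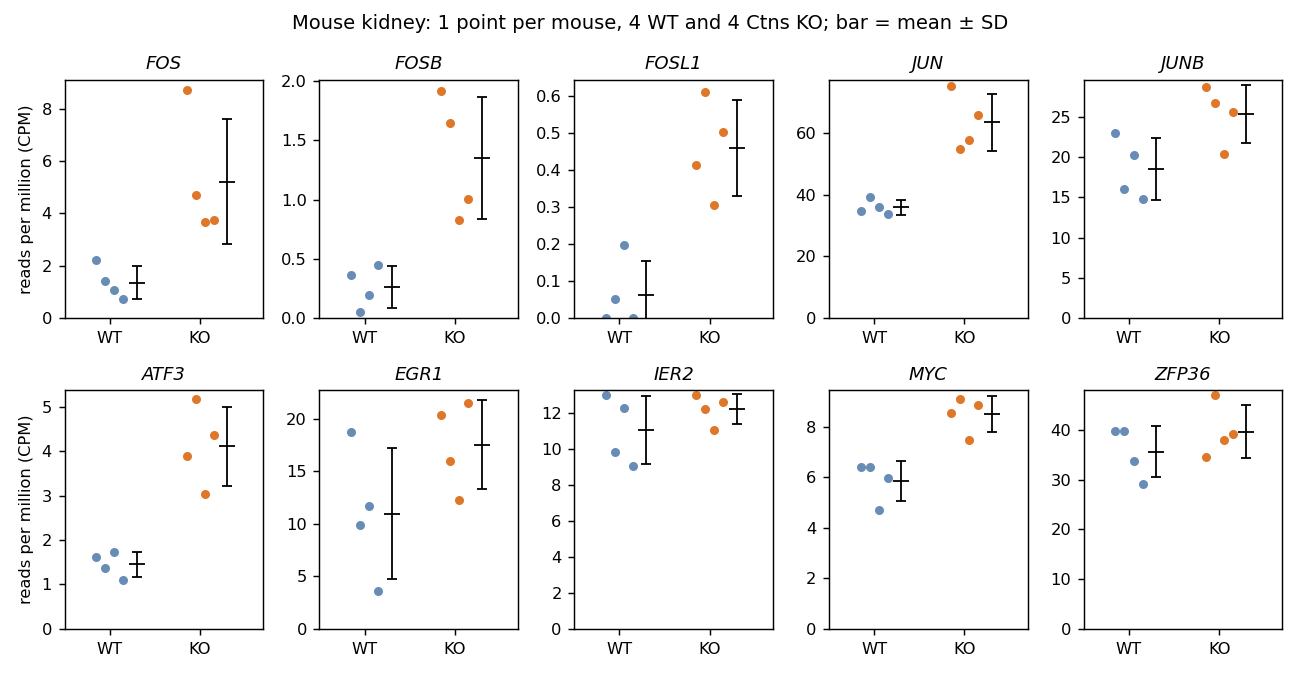
CPM (y axis, from 0) of the 10 genes in mouse kidney, 1 point per animal, WT in blue and Ctns KO in orange, with the mean ± SD beside the points (n = 4 per genotype). FOS, FOSB, FOSL1, JUN, ATF3 and MYC show no overlap between genotypes, while JUNB, EGR1, IER2 and ZFP36 do.

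FOS, the founding AP-1 subunit, was at 8.70, 4.71, 3.68 and 3.77 CPM in KO mice 3, 5, 6 and 8, and at 2.22, 1.42, 1.08 and 0.720 CPM in WT mice 1, 2, 4 and 7. Mouse 3 stood highest, and the lowest KO value exceeded the highest WT value. FOS was called with edgeR (log2 fold change 1.84, SE 0.38, adjusted p = 0.0168) but not with limma (adjusted p = 0.109), and without WT mouse 4 its edgeR adjusted p was 0.0673. FOSB, a FOS paralogue with a long-lived splice form, was at 1.92, 1.65, 0.828 and 1.01 CPM in KO and at 0.361, 0.0507, 0.197 and 0.450 CPM in WT mice. Its edgeR counts rose (log2 fold change 2.06, SE 0.42, edgeR adjusted p = 0.00673), while its limma adjusted p was 0.0618.

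FOSL1, an AP-1 subunit that itself lacks a transactivation domain, gave 8, 16, 10 and 17 reads in the KO mice and 0, 1, 6 and 0 reads in the WT mice. The KO over WT ratio of summed reads, scaled to the summed library sizes, was 8.34, with a 95% interval of 3.77 to 21.8 that covers counting error only. FOSL1 passed in limma (adjusted p = 0.0316) on a difference of 0.01 on the log2(value + 1) scale. This call was lost without any one of KO mice 3, 5 and 8 or WT mice 1, 2 and 7, with adjusted p up to 0.079.

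JUN, the main dimer partner of FOS, was at 75.1, 54.8, 57.5 and 65.9 CPM in KO and at 34.7, 39.1, 35.9 and 33.7 CPM in WT mice. JUN therefore rose from 35.9 ± 2.35 to 63.3 ± 9.15 CPM (limma log2(value + 1) difference 0.37, SE 0.06, adjusted p = 0.0178). The edgeR log2 fold change was 0.73 (SE 0.10, adjusted p = 0.000308). JUNB, a weaker activator than JUN, was at 25.3 ± 3.55 CPM in KO and 18.5 ± 3.82 CPM in WT, with overlapping groups (limma adjusted p = 0.247, edgeR adjusted p = 0.161).

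ATF3, induced by many forms of cell stress, was at 3.88, 5.17, 3.04 and 4.36 CPM in KO and at 1.62, 1.37, 1.74 and 1.10 CPM in WT mice. Its groups were well apart, and it rose in both tests (limma adjusted p = 0.0193; edgeR log2 fold change 1.41, SE 0.20, adjusted p = 0.000711). Without WT mouse 4 or 7 the limma adjusted p of both ATF3 and JUN passed 0.05, reaching 0.0545. MYC, which drives growth and ribosome production, was at 8.50 ± 0.717 CPM in KO and 5.87 ± 0.794 CPM in WT. MYC counts rose with edgeR (log2 fold change 0.44, SE 0.12, adjusted p = 0.036), the limma adjusted p was 0.0622, and its reads were not whole numbers in every mouse, so reads may be shared with another gene. The edgeR call was lost without any one of the 4 KO mice or WT mice 4 and 7, with adjusted p up to 0.119.

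EGR1, an early growth response factor, was at 20.4, 15.99, 12.3 and 21.6 CPM in KO and at 18.7, 9.89, 11.7 and 3.58 CPM in WT mice. WT mouse 1 lay among the KO animals and WT mouse 7 far below them, and the difference did not pass (edgeR log2 fold change 0.59, SE 0.47, adjusted p = 0.541). IER2 was at 12.2 ± 0.837 CPM in KO and 11.1 ± 1.89 CPM in WT. ZFP36 was at 39.7 ± 5.30 CPM in KO and 35.6 ± 5.17 CPM in WT. Both missed the threshold, with edgeR log2 fold changes of 0.05 (SE 0.12) and 0.07 (SE 0.11), the smallest of the 9 members tested.

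The WT mice differed among themselves in the same order for several genes. WT mouse 1 was highest for EGR1, FOS, IER2, JUNB, MYC and ZFP36, and WT mouse 7 was lowest for 7 of 10 members. Among the KO mice, mouse 6 was lowest for 8 of 10. The spread of FOS was 45.5% of its mean in KO mice and 47.2% in WT, and that of EGR1 24.3% and 56.8%, against medians of 6.99% and 9.53% over symbols of at least 1 CPM.

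In the rats, the 7 members that passed the filter on low counts were all higher in KO (edgeR, 8 against 8 animals): FOS, FOSB, JUN, JUNB, ATF3, EGR1 and MYC. Of all 11584 symbols tested, 27.5% were called, 15.2% of them higher and 12.3% lower in KO as shares of the symbols tested. FOSL1 did not pass this filter. FOSB, at 0 to 11 reads per WT rat and 9 to 64 per KO rat, passed it mainly through the KO rats. In CPM, every KO rat lay above every WT rat for FOSL1, ATF3, EGR1 and MYC, 4 of 8 members, against 4.53% of 13854 symbols with a read (5.34% separated in either direction). The median log2 change over the 7 was 1.85, beside -0.02 over all symbols.

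**Figure D2:**
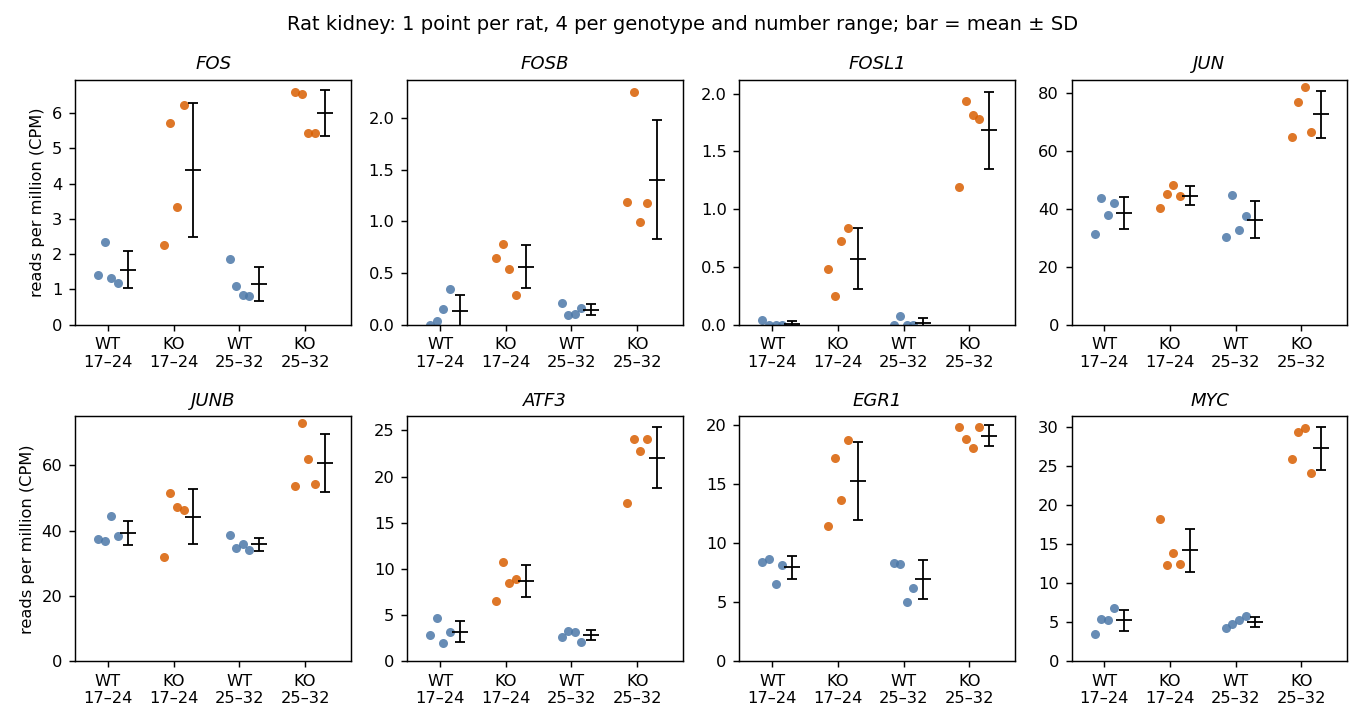
CPM (y axis, from 0) of 8 genes in rat kidney, 1 point per animal, WT in blue and Ctns KO in orange, split by number range, with the mean ± SD beside the points (n = 4 per group). The KO rats 25 to 32 lie above all their WT littermates for every gene, while FOS, FOSB, JUN and JUNB of the KO rats 17 to 24 overlap with WT in CPM.

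FOSL1 gave 15, 7, 20, 26, 37, 55, 55 and 44 reads in KO rats 18 to 32 (even numbers), and 0 reads in 6 of the 8 WT rats, with 1 read in rat 17 and 3 reads in rat 27. The ratio of summed reads, scaled to the summed library sizes, was 69.5, with a 95% interval of 26.8 to 257 that covers counting error only. It was the member with the largest ratio, and its level in KO, 1.13 ± 0.656 CPM, was still low. Without a filter it was called as well (edgeR adjusted p = 7.89e-06). FOSB ranged from 0.289 to 2.26 CPM in KO (median 0.885) and from 0 to 0.346 CPM in WT (median 0.129). It rose (log2 fold change 2.68, SE 0.47, adjusted p = 0.000561), and only KO rat 24, at 0.289 CPM, lay below the highest WT value.

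FOS ranged from 2.25 to 6.58 CPM in KO (median 5.58) and from 0.824 to 2.34 CPM in WT (median 1.26). Only KO rat 18, at 2.25 CPM, lay below the highest WT value, that of rat 19. This overlap held in CPM only. Scaled to the 75th percentile of each library instead, rat 18 was at 0.0481 and rat 19 at 0.0471, and the FOS groups did not overlap. The FOS difference was a log2 fold change of 1.85 (SE 0.23, edgeR adjusted p = 3.27e-05). ATF3 ranged from 6.51 to 24.1 CPM in KO and from 1.996 to 4.75 CPM in WT, without overlap (log2 fold change 2.26, SE 0.28, adjusted p = 2.93e-05).

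MYC ranged from 12.4 to 29.8 CPM in KO and from 3.52 to 6.79 CPM in WT, also without overlap. Its log2 fold change was 1.91 (SE 0.20, edgeR adjusted p = 6.08e-06). EGR1 ranged from 11.5 to 19.9 CPM in KO and from 4.99 to 8.68 CPM in WT (log2 fold change 1.12, SE 0.12, adjusted p = 7.99e-06). The JUN genes, already abundant in WT, had the smallest changes: JUN 0.55 (SE 0.14, adjusted p = 0.00831) and JUNB 0.39 (SE 0.11, adjusted p = 0.0166) on the log2 scale.

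Within rats 17 to 24, 4 of the 7 members tested rose, against 7.26% of 11610 symbols (5.07% higher, 2.19% lower): FOS (log2 fold change 1.47, SE 0.32, edgeR adjusted p = 0.0217), ATF3 (1.42, SE 0.22, adjusted p = 0.00263), EGR1 (0.93, SE 0.14, adjusted p = 0.00225) and MYC (1.41, SE 0.19, adjusted p = 0.00142). The FOS call was lost in 5 of the 8 fits without 1 animal (rats 17, 20, 21, 23 and 24), with adjusted p up to 0.0797, and with limma-voom (adjusted p = 0.0524). FOSB (1.96, SE 0.62, adjusted p = 0.0831), JUN (0.19, SE 0.09, adjusted p = 0.233) and JUNB (0.15, SE 0.13, adjusted p = 0.577) did not pass, although FOSB was called with DESeq2 (adjusted p = 0.0459) and limma-voom (adjusted p = 0.0494). FOSL1, under the filter, gave 68 reads in the 4 KO and 1 read in the 4 WT rats. In CPM, every KO rat of this range lay above every WT rat for FOSL1, ATF3, EGR1 and MYC, against 7.65% of symbols (11.5% separated in either direction).

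Within rats 25 to 32, all 8 members were tested and all rose, against 43.8% of 11633 symbols called, 21.8% higher and 22.1% lower. FOSL1, at 0 to 3 reads per WT rat, and FOSB, at 3 to 6, passed the filter on low counts through their KO rats alone. Such genes could hardly be called lower, so their calls weigh less among the 8. Every KO rat lay above every WT rat for each of the 8, against 31.1% of symbols (38.6% separated in either direction). FOSL1 gave 191 reads in KO and 3 in WT, a ratio of 71.4 with a 95% counting interval of 24.1 to 349 (edgeR adjusted p = 2.41e-05). The log2 fold changes were 3.12 (SE 0.39) for FOSB, 2.80 (SE 0.16) for ATF3, 2.27 (SE 0.12) for MYC and 2.23 (SE 0.23) for FOS. EGR1 (1.30, SE 0.15), JUN (0.83, SE 0.12) and JUNB (0.60, SE 0.09) followed, with edgeR adjusted p-values of 8.15e-05, 0.000316 and 0.00061.

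The KO effect itself differed between the number ranges for ATF3, JUN and MYC. In the interaction test it was larger in rats 25 to 32 by 1.38 log2 units for ATF3 (SE 0.29, edgeR adjusted p = 0.00537), by 0.65 for JUN (SE 0.16, adjusted p = 0.0124) and by 0.85 for MYC (SE 0.24, adjusted p = 0.024). These are 3 of 8 members, against 14.7% of 11839 symbols (7.1% with a larger and 7.64% with a smaller log2 change in rats 25 to 32). JUNB (0.45, SE 0.17, adjusted p = 0.0768), FOS (0.77, SE 0.43, adjusted p = 0.223), EGR1 (0.38, SE 0.22, adjusted p = 0.239) and FOSB (1.16, SE 0.86, adjusted p = 0.366) did not pass, and FOSL1, with WT counts near 0, could not be estimated. The MYC difference was lost without KO rat 28 or WT rat 27, with adjusted p up to 0.0535.

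For these 3 genes the KO animals of the ranges did not overlap, whereas the WT animals did. ATF3 was at 8.67 ± 1.74 CPM in KO rats 17 to 24 and 22.03 ± 3.30 CPM in KO rats 25 to 32, and at 3.20 ± 1.15 and 2.81 ± 0.535 CPM in the WT rats of these ranges. JUN was at 44.5 ± 3.29 and 72.5 ± 8.25 CPM in KO, beside 38.6 ± 5.50 and 36.3 ± 6.50 CPM in WT. MYC was at 14.2 ± 2.72 and 27.3 ± 2.74 CPM in KO, beside 5.26 ± 1.34 and 5.05 ± 0.655 CPM in WT. In all, every KO rat 25 to 32 lay above every KO rat 17 to 24 for FOSB, FOSL1, JUN, JUNB, ATF3 and MYC, 6 of 8 members, against 21.6% of 13854 symbols with a read (35.6% separated in either direction), while FOS and EGR1 overlapped. The WT ranges overlapped for all 8 members, where 5.14% of symbols were higher in every rat 25 to 32 and 22.4% separated in either direction. Between WT rats 25 to 32 and 17 to 24, 0 of 8 members passed in edgeR, against 21.1% of 11839 symbols (11.7% higher, 9.43% lower in rats 25 to 32), and 0 had an unadjusted p under 0.05 with edgeR, DESeq2 or limma-voom.

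Markers of cell types also differed between the ranges. In the same interaction test the KO effect was larger in rats 25 to 32 for 6 of 10 macrophage and myeloid markers and 4 of 8 tubular injury genes, and the log2 change was lower for 6 of 8 proximal tubule markers. Between the WT ranges, 6 of 8 proximal tubule markers were higher and 1 lower in rats 25 to 32, and 4 of 8 lymphocyte markers and 5 of 10 macrophage and myeloid markers were higher, with 1 of the latter lower. Podocyte markers were lower for 4 of 5 genes, among them SYNPO, whose rat reads are identical to those of MYOZ3, as were endothelial markers for 4 of 6 and thick limb and distal tubule markers for 3 of 3. The part of these markers in the members' difference between the ranges was not tested.

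**Figure D3:**
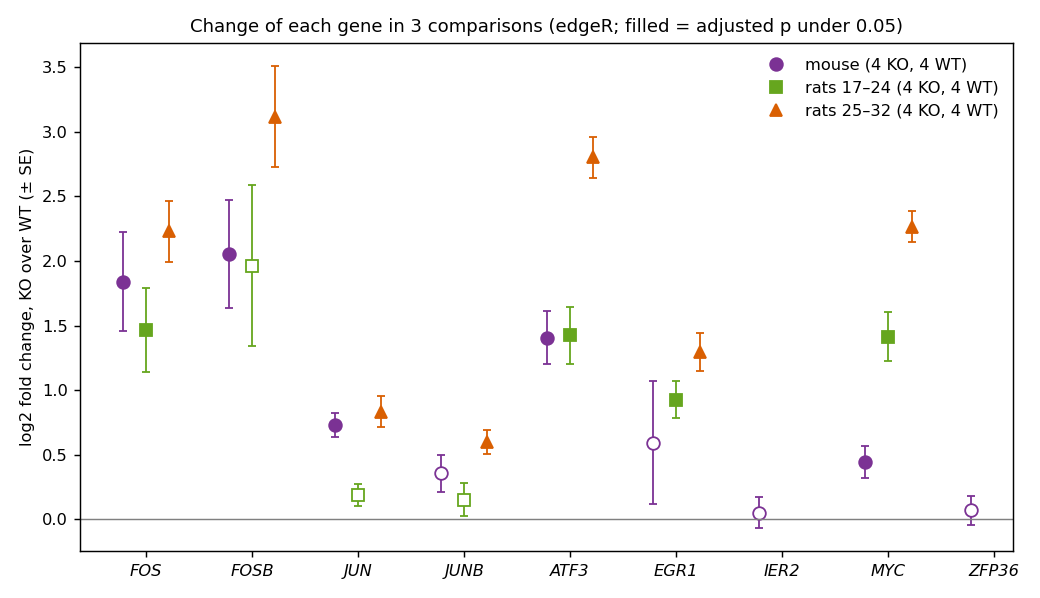
Log2 fold change of KO over WT (y axis) with its SE for 9 genes in mice (circles), rats 17 to 24 (squares) and rats 25 to 32 (triangles), 4 animals per genotype each. Filled symbols passed adjusted p 0.05 in edgeR, which for the mice was run on recovered reads. FOSL1 is left out because its WT counts were near 0. ATF3, JUN and MYC lie higher in rats 25 to 32 than in rats 17 to 24.

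Between species, the KO effect was set side by side over the 7 members tested in both. MYC was the member whose effect differed: it was larger in the rats by 0.30 on the log2(value + 1) scale (SE 0.08, limma adjusted p = 0.0311) and by 1.5 log2 units in edgeR (SE 0.31, adjusted p = 0.00894). This is 1 of 7 members, against 3.17% of 11216 symbols (1.8% with a larger and 1.36% with a smaller log2 change in the rats). The limma call was lost without any one of KO mice 3, 5 and 6 or WT mice 1 and 7, with adjusted p up to 0.0691. The other 6 missed the threshold, with limma differences from -0.09 for JUN to 0.23 for ATF3 (SE 0.12 and 0.08). The species also differ in genome build and in the form of the deposited values, and these cannot be told apart. Mouse MYC reads were not whole numbers in every mouse, so reads may be shared with another gene.

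Single animals did not order all members alike. KO rat 18 was lowest of the 8 KO rats for ATF3, EGR1, FOS, JUN and JUNB, yet at 18.2 CPM it was highest for MYC among KO rats 17 to 24. Its mitochondrial share, 22.4% of reads on genes, was the highest of the KO rats. Described over the 16 rats after subtracting the mean of each genotype and range, the correlation with FOS was 0.795 for EGR1 (11th of 10826 symbols), 0.523 for JUNB, 0.486 for ATF3, 0.028 for JUN and -0.532 for MYC. Over the 8 mice, centred on genotype, it was 0.722 for JUNB, 0.686 for EGR1, 0.615 for IER2, 0.547 for JUN, 0.343 for MYC, 0.303 for ATF3 and 0.242 for ZFP36. The symbols outside the members closest to FOS were SULT1C3 (0.896), PKNOX2, GPATCH3, RAB36 and PCED1B in the rats, and CUEDC2 (0.982), KRT222, DPT, FBXO8 and RING1 in the mice, with no symbol in both lists. Points of one library share its depth, and these orders are a description.

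Genes of the same pathway were taken from lists. Over all symbols, 4.32% were called in the mice with limma (3.5% higher, 0.817% lower). In all rats with edgeR the share was 27.5% (15.2% higher, 12.3% lower). Of the other AP-1 family genes, 4 of 14 rose and 0 fell in the mice. JUND, a JUN paralogue usually expressed at a steady level, went from 87.8 ± 6.002 to 126 ± 6.72 CPM (limma adjusted p = 0.00852). FOSL2 (FRA-2) went from 17.9 ± 0.702 to 27.8 ± 1.27 CPM (adjusted p = 0.00273), and the small MAF protein MAFF from 2.41 ± 0.582 to 4.23 ± 0.194 CPM (adjusted p = 0.0285). In the rats, 3 of 11 tested rose and 1 fell, among them BATF, a lymphoid and myeloid AP-1 factor (log2 fold change 1.27, edgeR adjusted p = 0.00797), MAFF (0.75, adjusted p = 0.00151) and MAF, which fell by 0.57 on the log2 scale (adjusted p = 0.00467). FOSL2 was not analysed in the rat. The list's median log2 change was -0.10 in the rats, beside -0.02 over all symbols, and 0.01 on the log2(value + 1) scale in the mice.

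Of 40 other immediate early genes, 10 rose and 0 fell in the mice. The matricellular CCN1 went from 24.3 ± 6.73 to 62.7 ± 15.6 CPM (limma adjusted p = 0.0341), the zinc finger factor KLF6 from 40.99 ± 5.17 to 64.2 ± 3.01 CPM (adjusted p = 0.015), and the survival gene MCL1 from 146 ± 8.39 to 197 ± 13.5 CPM (adjusted p = 0.0283). In the rats, 16 of 34 tested rose and 3 fell. EGR2 (log2 fold change 3.01, edgeR adjusted p = 0.00029), the cytokine signalling inhibitor SOCS3 (1.79, adjusted p = 0.000198) and the orphan nuclear receptor NR4A3 (1.33, adjusted p = 0.00048) had the largest changes, and all 3 also rose within each number range. The list's median log2 change was 0.32 in the rats and 0.09 on the log2(value + 1) scale in the mice.

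The kinases and factors upstream showed fewer changes. Of the kinases and SRF, TCF and CREB factors, 0 of 24 passed in the mice with limma, 4 at an unadjusted p under 0.05, and 0 with edgeR. In the rats 2 of 20 rose and 3 fell, a share near that of all symbols, with ELK3, a TCF factor, at a log2 fold change of 0.32 (edgeR adjusted p = 0.00172), the kinase RPS6KA4 at 0.20 (adjusted p = 0.0483) and the JNK kinase MAP2K7 down by 0.25 (log2 fold change -0.25, adjusted p = 0.0351). Of the MAP kinase feedback inhibitors, the phosphatase DUSP8 rose in the mice (1 of 14; 4.50 ± 0.516 to 8.56 ± 0.902 CPM, limma adjusted p = 0.00931). In the rats DUSP10 (0.88, adjusted p = 0.00249) and SPRY2 (0.15, adjusted p = 0.0481) rose and DUSP2 fell (-0.55, adjusted p = 0.0361), 3 of 12, against 27.5% of all symbols.

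Targets of AP-1 were among the lists with the larger shares called. In the mice 7 of 17 rose and 0 fell. SPP1, which encodes osteopontin, went from 1583 ± 250.1 to 3433 ± 367 CPM (limma adjusted p = 0.011), and the G1 cyclin CCND1 from 265 ± 22.04 to 443 ± 31.5 CPM (adjusted p = 0.00852). In the rats 9 of 14 rose and 1 fell, with SPP1 (log2 fold change 3.59, edgeR adjusted p = 2.82e-06), the cytokine LIF (1.92, adjusted p = 0.000115) and the metalloproteinase inhibitor TIMP1 (1.86, adjusted p = 0.000629) leading. These genes answer to other factors as well, and their list median was 1.07 in the rats.

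Around MYC, smaller shares were called than for the AP-1 targets. Of its network partners, MXD3, a MAX-binding repressor, rose in the mice (1 of 11; 0.270 ± 0.10 to 1.76 ± 0.668 CPM, limma adjusted p = 0.0447). In the rats MYCL rose (log2 fold change 0.97, edgeR adjusted p = 0.00657) and MXD1 fell (-0.31, adjusted p = 0.0286), 2 of 10, against 27.5% of all symbols. Of the nucleolar and growth targets of MYC, 0 of 19 passed in the mice with limma, 1 at an unadjusted p under 0.05, and 0 with edgeR. Their summed level was 1554 to 1659 CPM in KO mice and 1411 to 1484 CPM in WT mice. These CPM sums did not overlap, but the list's median edgeR log2 change was -0.004, beside -0.01 over all symbols. In the rats 3 of 18 rose, a share near that of all symbols, and the changes were small: NOP58 0.20 (adjusted p = 0.0155), NPM1 0.20 (adjusted p = 0.023) and CAD 0.14 (adjusted p = 0.0471) on the log2 scale. Within rats 25 to 32, 5 of 18 rose and 0 fell, against 21.8% of symbols higher and 22.1% lower. Their summed level there was 1628 to 1774 CPM in KO and 1299 to 1406 CPM in WT. Within rats 17 to 24, 0 of 18 passed in edgeR, with sums of 1404 to 1434 and 1329 to 1405 CPM. The KO effect was larger in rats 25 to 32 for 2 of 18, against 7.1% of symbols.

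Among cytokine mRNAs that ZFP36 destabilizes, 0 of 8 passed in the mice with limma, 2 at an unadjusted p under 0.05, and 1, CCL2, with edgeR. In the rats CCL2 (log2 fold change 1.67, edgeR adjusted p = 0.00657) and IL1B (0.63, adjusted p = 0.0377) rose and PTGS2 fell (-0.83, adjusted p = 0.0375), 3 of 5 tested. CCL2 counts were not whole numbers in the rat. Heat shock genes, a sign of stress at tissue collection as well as of disease, gave 0 of 10 in the mice with limma, 3 at an unadjusted p under 0.05, and 1 with edgeR, HSPE1, which fell. In the rats 1 of 8 rose, HSPB1 (0.52, adjusted p = 0.00926), and 2 fell, DNAJA1 (-0.19, adjusted p = 0.0393) and HSPD1 (-0.19, adjusted p = 0.0186). Within rats 25 to 32, where the members had their larger changes, HSPB1 (0.97, edgeR adjusted p = 0.000302), HSPA1B (0.83, adjusted p = 0.0264) and DNAJB1 (0.21, adjusted p = 0.033) rose. BAG3, HSPD1 and DNAJA1 fell there, which made 6 of 8 called, against 43.8% of all symbols. Within rats 17 to 24, 0 of 8 passed in edgeR, 0 at an unadjusted p under 0.05, against 7.26% of symbols called. The KO effect differed between the ranges for HSPB1 (by 0.90 log2 units, edgeR adjusted p = 0.00228) and DNAJB1 (by 0.27, adjusted p = 0.0432), against 14.7% of symbols. The WT ranges differed too: in WT rats 25 to 32, BAG3 and HSPD1 were higher and HSPA1B and HSPB1 lower than in WT rats 17 to 24. The KO changes of these genes within rats 25 to 32 went the opposite way. Both comparisons use WT rats 25 to 32, so opposite directions can arise from the shared animals. The part of the WT level in these KO changes was not tested. Of 14 clock genes, which follow the hour of sampling, 0 passed in the mice with limma, 3 at an unadjusted p under 0.05, and 1 with edgeR, NR1D1, which fell, while HLF fell in the rats (-0.73, adjusted p = 0.00364). Within rats 25 to 32, 8 of the 14 clock genes fell, against 22.1% of symbols lower. Within rats 17 to 24, 0 of the clock genes passed in edgeR, 0 at an unadjusted p under 0.05. The hour of sampling is not in the labels, and its part and that of stress at collection in the members' changes were not tested.

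Tubular injury genes rose beside the members. In the mice 5 of 9 rose, led by CDKN1A, a cell cycle inhibitor (8.57 ± 1.36 to 66.7 ± 15.9 CPM, limma adjusted p = 0.00438), VCAM1, an adhesion molecule (16.3 ± 2.57 to 45.8 ± 1.238 CPM, adjusted p = 0.000898) and the keratin KRT20 (0.309 ± 0.258 to 4.07 ± 1.22 CPM, adjusted p = 0.0152). In the rats 7 of 8 rose. HAVCR1, which encodes the injury marker KIM-1, had a log2 fold change of 4.27 (edgeR adjusted p = 2.12e-05), with counts that were not whole numbers. LCN2, which encodes NGAL (3.99, adjusted p = 0.00021), and CDKN1A (3.24, adjusted p = 3.59e-05) followed.

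**Figure D4:**
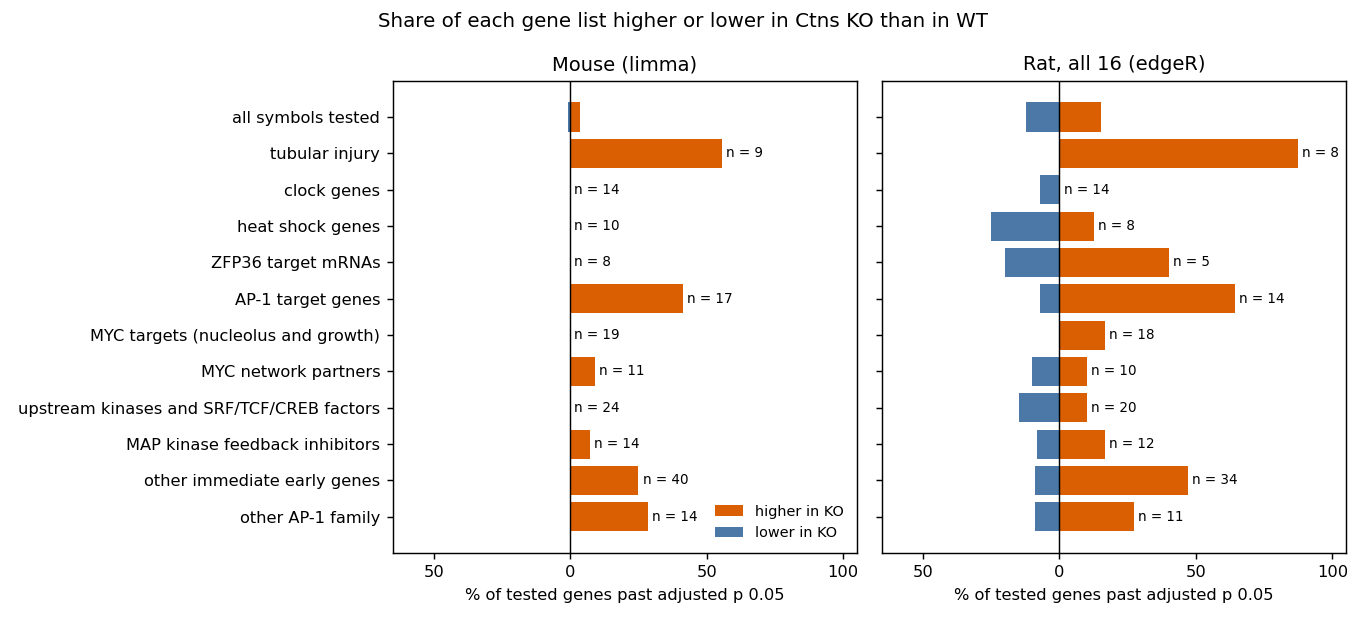
Share of the tested genes of each list that were higher (orange, to the right) or lower (blue, to the left) in Ctns KO, in the mice (limma) and in all 16 rats (edgeR), with the number tested, beside all symbols. AP-1 targets, other AP-1 family genes, other immediate early genes and tubular injury genes were among the lists with larger shares higher than all symbols in both species. In the rats the median log2 change of the other AP-1 family genes was below that of all symbols. Heat shock and clock genes did not have larger shares higher. In the rats 2 of 8 heat shock genes and 1 of 14 clock genes were lower, against 12.3% of symbols. Changes within the number ranges are not drawn.

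Markers of other cell types moved with genotype too. Macrophage and myeloid markers rose for 7 of 10 genes in the mice and 8 of 10 in the rats, where ITGAM has the same reads as ITGAD. Their summed level was 224 to 267 CPM in KO mice beside 144 to 147 CPM in WT. It was 221 to 250 beside 140 to 198 CPM in rats 17 to 24, and 421 to 616 beside 189 to 239 CPM in rats 25 to 32. Fibroblast and smooth muscle markers rose for 4 of 8 genes in the mice (365 to 419 CPM in KO, 205 to 274 CPM in WT) and 6 of 7 in the rats. Lymphocyte markers passed for 0 of 10 in the mice with limma, 0 at an unadjusted p under 0.05, and 0 with edgeR, and rose for 6 of 7 tested in the rats. Proximal tubule markers fell for 6 of 8 in the rats, with sums of 18323 to 19923 CPM in KO beside 22002 to 24301 CPM in WT in rats 17 to 24, and of 15618 to 18689 beside 26433 to 28829 CPM in rats 25 to 32, and passed for 0 of 10 in the mice with limma, 2 at an unadjusted p under 0.05, and 1 with edgeR. Thick limb and distal tubule markers rose for 2 of 3 in the rats, UMOD (log2 fold change 0.31, edgeR adjusted p = 0.0449) and CALB1 (0.36, adjusted p = 0.0257). In the mice, with collecting duct genes, they summed to 10184 to 11232 CPM in KO beside 8353 to 9649 CPM in WT, while 0 of 8 passed with limma, 0 at an unadjusted p under 0.05, and 0 with edgeR. None of the macrophage, fibroblast or proximal tubule markers in the tables was at 0 in all animals, and the part of cell composition in the members' changes was not tested.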

How the data were processed

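RNA sequencing libraries (stranded mRNA, paired reads) of 8 mouse and 16 rat kidneys were analysed, grouped by the genotype and animal number in the labels. The submitters' processing notes name bcl2fastq 2.20, STAR 2.7.3, DESeq2 1.24.0 and R 3.6.1, with builds mm10 and rn5; the counting step and its use of strand are not given in the sources used here. Mouse values were deposited as a scaled signal, found here to equal reads plus 0.5 over the 75th percentile of the library plus 0.5. Whole reads were recovered for 99% of values, to within 0.01. Rat values were deposited as estimated counts that equal reads plus 1/6; this was subtracted and the remainder rounded (97.7% whole). Symbols are upper case.

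Mouse values were tested with limma 3.58.1 (trend, robust) on log2(value + 1), unfiltered, and rat counts with edgeR 4.0.16 (quasi-likelihood, TMM, filterByExpr), in R 4.3.3. A fold change on the log2(value + 1) scale understates the change of low genes. P-values were two-sided and adjusted by Benjamini-Hochberg over all symbols, with a threshold of 0.05. The species difference was tested with limma on values of both species scaled alike. Exon lengths are unions over GENCODE vM21 transcripts. Some of the model fits were tested on simulated data, but not every step was.

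The members and lists were chosen with earlier results of these data known. Genes were named by rule: the members; from each list, the 3 largest changes past the threshold in each species; and the 5 symbols most like FOS by Pearson correlation of centred log2 values, at 1 CPM or more. HSPE1, NR1D1, HSPA1B, DNAJB1, BAG3, UMOD, CALB1, SYNPO and ITGAM were named after their values were seen. Some list genes that the rule would name are not reported here. Depth limits FOSB and FOSL1. Alternatives were a pseudocount of 0.1, filters, edgeR and DESeq2 1.42.0 on recovered reads, DESeq2 size factors, limma-voom, number range as a covariate, and leaving out each animal.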

Additional observations from a re-analysis of the deposited data

Results flagged for a closer look

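In 68 groups of 4 or 8 animals, 7 held an animal far from the others by Dixon's test at 95%. Chance gives about 1 in 20 for separate groups without ties. These groups were not separate, because each rat group was taken whole and again by number range. FOSB was at 2.26 CPM in KO rat 28, while the other KO rats were at 0.289 to 1.19 CPM; it stood apart both among the 8 KO rats and within rats 25 to 32. ATF3 was at 4.75 CPM in WT rat 19, against 2.0 to 3.30 CPM in the other WT rats. JUNB was at 44.6 CPM in WT rat 21, against 34.2 to 38.7 CPM in the others, both among the 8 WT rats and within rats 17 to 24. FOSL1 stood at 0.04 CPM in WT rat 17 and at 0.0738 CPM in WT rat 27, which are 1 and 3 reads, where the other WT rats of each range had none. With all others at 0, any read is flagged, so these FOSL1 flags follow from the zeros.

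The KO effect differed between groups in 4 tests. It was larger in rats 25 to 32 than in rats 17 to 24 by 1.38 log2 units for ATF3, 0.648 for JUN and 0.855 for MYC (edgeR interaction, adjusted p = 0.00537, 0.0124 and 0.024). It was larger in the rats than in the mice by 0.299 for MYC on the log2(value + 1) scale (limma adjusted p = 0.0311).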

How the results depend on the processing

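No paired analysis was possible because each replicate number is an animal's own and no number is shared between genotypes. The mouse count of members called was 3 with limma, 5 with edgeR and 6 with DESeq2 on recovered reads, and 0 to 3 when 1 mouse was left out: 1 without WT mouse 4 and 0 without WT mouse 7. With edgeR on recovered reads, leaving out each mouse, added after the data were seen, gave 4 to 6. The limma count of all symbols was 751, beside 1198 with edgeR, 1520 with DESeq2 and 352 to 683 when 1 mouse was left out. In the rats the counts of members called kept within 1.5 times of the main count under every alternative run: 7 to 8 for all rats, 3 to 6 for rats 17 to 24, 8 for rats 25 to 32, 2 to 3 for the interaction and 0 for the WT ranges. The species difference called 1 member, and 0 to 1 when 1 animal was left out. None of the alternatives reversed a called change of a named gene or member: of 1723 results for single genes, 1561 kept direction and side of the threshold, 150 lost it and 12 gained it. Beside the members named with their animals, calls lost in some fits without 1 animal included those of CCN1, MAFF, MCL1 and MXD3 in the mice and of CAD, DNAJA1, DUSP2, HSPD1, IL1B, MAP2K7, MXD1, PTGS2, RPS6KA4 and SPRY2 in the rats. Depth limits FOSL1, at 0 to 6 reads per WT animal, and FOSB, at 0 to 20.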
